A study of Homo sapiens with 23 samples.

Results

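The genes described here stood apart on the first day of directed differentiation from the days on either side of it. They were found by comparing day 1 with the mean of day 0 and day 3 and keeping the genes that also differed from each of those days in the same direction. Of 22245 genes tested, 1357 were higher on day 1 than on both flanking days (6.1%) and 1323 were lower (5.95%). The cells are H1-hESC, an established human embryonic stem cell line, whose RNA was sequenced after removal of ribosomal RNA at 8 times from day 0 to day 28, and 9 of the 23 libraries belong to these 3 days. The 3 libraries of day 0 are undifferentiated cells labelled stem cell, the 3 of day 1 are labelled mesendoderm and the 3 of day 3 cardiac mesoderm. All are wild type cells of the same line taken through differentiation into cardiomyocytes, and the agents that start it are not given in the sources used here. The labels do not say whether the replicates were separate cultures, so each p-value rests on differences among replicate libraries, which may be technical. The spread was estimated from all 23 libraries of the 8 times. Total counts assigned to genes lay between 17719348 and 22089595 on day 0, between 13144827 and 21233225 on day 1 and between 9252641 and 20975832 on day 3. Levels are given in CPM (counts per 1000000 counts of the library, with library sizes scaled by TMM), which is not divided by gene length, so levels of different genes are not compared. A ± value is the SD over 3 libraries.

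Embryonic stem cells that leave pluripotency for mesoderm or endoderm pass through a state like the primitive streak of the embryo. Wnt, Nodal and FGF signals drive this step, and T-box and homeobox transcription factors such as TBXT (brachyury), EOMES, MIXL1 and GSC (goosecoid) mark it. The streak genes are known to be short-lived: cells that move on to cardiac mesoderm shut them off and switch on MESP1, PDGFRA and HAND1. Many Wnt and Nodal targets are inhibitors of the same pathways and limit the signal in time.

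The labels were checked against such markers. TBXT, MIXL1, EOMES and GSC were each below 2 CPM in all 3 day 0 libraries and high in all 3 day 1 libraries. SOX2 and NANOG, factors of the stem cell state, averaged 209 ± 3.20 and 251 ± 6.46 CPM on day 0, 23.7 ± 4.68 and 162 ± 28.5 on day 1 and 1.72 ± 0.536 and 1.95 ± 1.28 on day 3. Of the day 3 markers, MESP1, PDGFRA and HAND1 stood at 57.5 ± 35.0, 268 ± 138 and 210.3 ± 48.3 CPM on day 3, against 1.41 ± 0.697, 3.18 ± 0.417 and 0.0546 ± 0.0475 on day 1. KDR, which marks cardiac mesoderm but is also expressed by human stem cells, was lower on day 3 (176 ± 32.3 CPM) than on day 0 (354 ± 7.63). In bulk RNA, fewer cells of a type and less RNA per cell cannot be told apart, which holds for every value given here.

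Some libraries stood apart within their day, and the day 1 difference moved with the base composition of genes. The median log2 difference of day 1 from the mean of days 0 and 3 was -0.68 in the 20% of genes with the lowest GC content and 0.38 in the 20% with the highest, against 0.01 over all genes. It was 0.08 in the 20% with the shortest transcripts and -0.38 in the 20% with the longest. Day 1 replicate 2, day 0 replicate 2 and day 3 replicate 1 each the most deeply sequenced library of its day, departed from their day's mean in the same way. Across genes, their departures correlated at r = 0.604 between the day 1 and the day 3 library, 0.282 between the day 0 and the day 3 library, and 0.229 between the day 0 and the day 1 library. Per library, the level of high-GC genes relative to low-GC genes was 0.75, 0.02 and 0.90 on day 1 (replicates 1 to 3, median log2 deviation), -0.36, -0.56 and -0.28 on day 0, and -0.83, 0.20 and 0.24 on day 3. With the trends of GC content and gene length removed from every library, 1028 of the 1350 higher genes with known composition were still called, and so were 856 of 1311 lower genes. None of the higher genes and 8 of the lower genes changed sign. Without those 3 libraries, 972 genes were higher than on both days and 842 were lower.

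**Figure D1:**
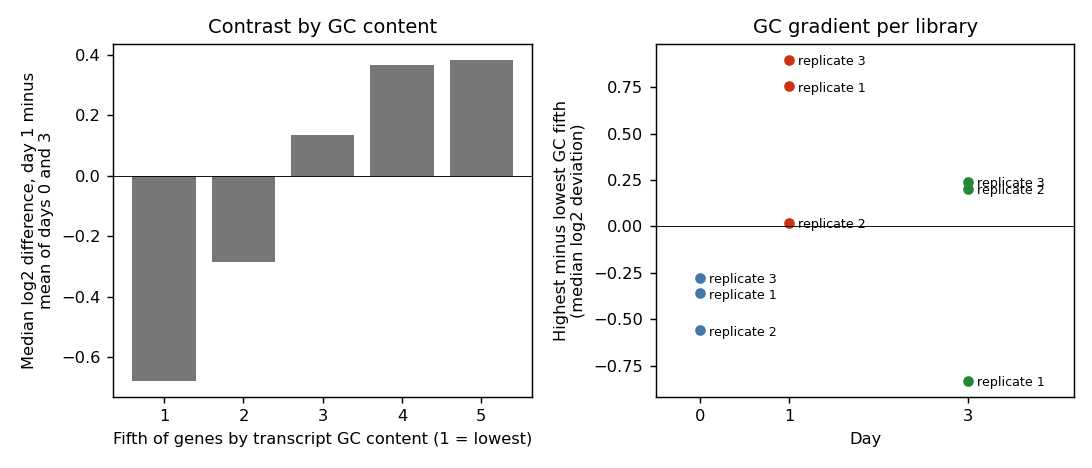
Left, median log2 difference of day 1 from the mean of days 0 and 3 in 5 equal groups of genes by transcript GC content, which runs from -0.68 in the lowest group to 0.38 in the highest. Right, the median log2 deviation of the highest GC group minus that of the lowest in each of the 9 libraries by day, where day 1 replicate 2 (0.02) lies apart from the other day 1 libraries and day 3 replicate 1 (-0.83) from the other day 3 libraries.

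Against the mean of days 0 and 3, 4109 genes were higher on day 1 (18.5% of those tested) and 3410 were lower (15.3%), at an adjusted p under 0.05 by edgeR's quasi-likelihood test. Of the higher genes, 921 differed in that direction from day 0 only, 1697 from day 3 only, 134 from neither and 1357 (6.1% of genes tested) from both. Of the lower genes, 964 differed from day 0 only, 1083 from day 3 only, 40 from neither and 1323 (5.95%) from both. Scaled to library totals alone, which lowers the median gene by 0.16 on the log2 scale, 829 genes were higher and 1777 lower than on both days, so the near-equal split depends on the scaling. Leaving out day 1 replicate 1 left 702 genes higher and 586 lower than on both days, and leaving out day 1 replicate 3 left 617 and 609. Without day 0 replicate 2 there were 825 and 866, without day 0 replicate 1 869 were higher, and without day 3 replicate 1 810 were lower.

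The sizes ranged widely in both directions. By fitted fold changes, 590 of the higher genes were at least 2-fold above each flanking day and 187 at least 4-fold, and 937 of the lower genes were at least 2-fold below each day and 183 at least 4-fold. The smaller of the 2 steps, the one that limits membership, had a median of 0.93 (log2) in the higher genes and -1.19 in the lower genes. The same 9 libraries chose the genes, so the absence of overlap is only a description: every day 1 library lay above all 6 flanking libraries in 1332 higher genes (12.7% of all genes tested showed this) and below them in 1157 lower genes (8.72%). Protein-coding genes made up 1168 of the higher and 1176 of the lower genes, and long non-coding RNAs 137 and 86. The strand setting of the authors' counting is not given in the sources used here, so reads of a gene and of a partner that overlaps it on the other strand may not be told apart. At the threshold, ITPRIP was just inside the higher genes (largest of its adjusted p-values 0.04995, steps 0.62 and 1.62) and CASP8 just outside (0.0501, steps 0.66 and 1.52). CCDC14 was just inside the lower genes (0.0499, steps -0.96 and -1.16) and RFX7 just outside (0.0501, steps -1.22 and -0.75).

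**Figure D2:**
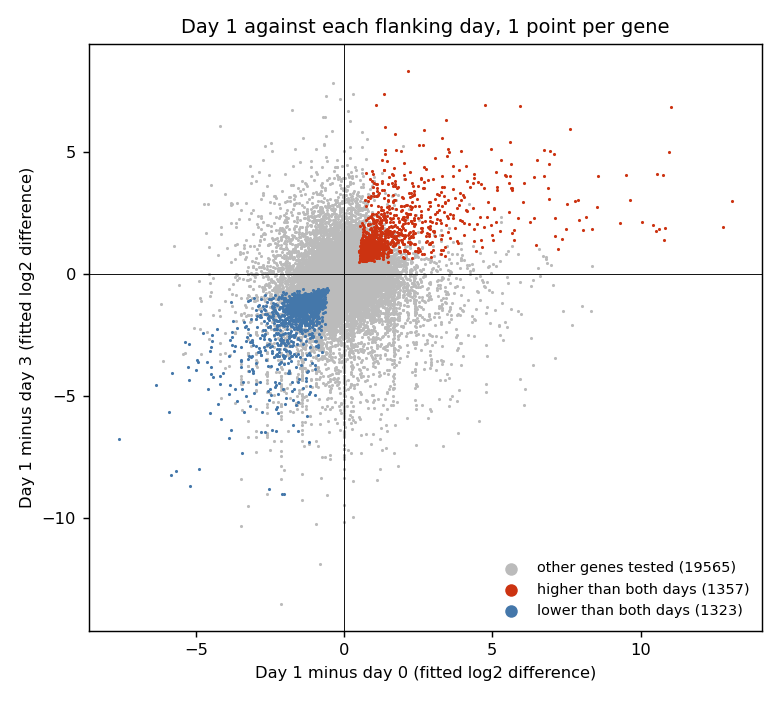
Fitted log2 difference of day 1 from day 0 (horizontal) and from day 3 (vertical) for all genes tested, 1 point per gene. The 1357 genes higher than on both days fill the upper right and the 1323 lower genes the lower left, and the other 19565 genes are grey.

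The transcription factors of the primitive streak held the clearest members. Of 22 such genes tested, 14 were higher on day 1 than on both flanking days and none was lower, where 6.1% and 5.95% of all genes tested were. Their median log2 difference from the flanking mean was 3.38, against 0.01 over all genes. All 14 kept that call in every one of the 21 alternative fits that tested them, one of which leaves out the 3 libraries named above together. The filter with a minimum of 50 counts tested only 21 of the 22 factors and called 13 of them higher. TBXT (ENSG00000164458, chromosome 6, 166157656 to 166168700, minus strand, GRCh38), the T-box factor that specifies mesoderm, was measured at 0.273, 0.236 and 0.231 CPM on day 0, 529, 418 and 589 on day 1 and 8.57, 13.7 and 26.5 on day 3. MIXL1, a homeobox factor of mesendoderm, was at 0.875, 1.65 and 1.44 CPM on day 0, 2183, 1624 and 2232 on day 1 and 81.3, 102 and 171 on day 3. Both genes were nearly silent on day 0 and had fallen again by day 3, to levels still above day 0. Against the flanking mean TBXT was higher by 7.97 on the log2 scale (SE 0.36, edgeR adjusted p = 1.07e-13) and MIXL1 by 7.32 (SE 0.31, adjusted p = 5.35e-15).

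GSC, a homeobox repressor of the anterior streak, was at 86.1, 70.3 and 98.4 CPM on day 1 and at 3.11, 4.44 and 7.94 on day 3, from only 6 counts over the 3 day 0 libraries. CDX1, a caudal homeobox gene of the posterior body axis, was at 177, 115 and 222 on day 1 and 7.51, 12.5 and 10.5 on day 3, from 5 counts on day 0. The other 2 caudal genes were members as well. CDX2 had 2 counts over the day 0 libraries and stood at 50.7, 34.6 and 59.5 CPM on day 1 and 7.55, 13.2 and 12.3 on day 3. CDX4 was low throughout, at 1.20, 1.46 and 1.79 CPM on day 0, 4.48, 3.27 and 3.54 on day 1 and 0.311, 0.467 and 0.201 on day 3. EVX1, an even-skipped homeobox gene of the posterior streak, had 0 counts in every day 0 library, 94.0, 68.6 and 106 CPM on day 1 and 8.31, 12.5 and 12.8 on day 3. MSGN1, a bHLH factor of presomitic mesoderm, had 1 count on day 0 and reached 22.2, 18.5 and 25.8 CPM before 1.78, 2.72 and 3.82 on day 3. No library of day 1 overlapped a flanking library for any of these 6 genes.

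EOMES, the T-box factor of early mesendoderm, declined less by day 3: it was measured at 0.547, 0.518 and 0.231 CPM on day 0, 633, 531 and 664 on day 1 and 87.5, 116 and 245 on day 3 (day 1 minus day 3, 2.03, SE 0.36, adjusted p = 9.38e-05). SP5 and SP8 are zinc finger factors, SP5 being a direct Wnt target. SP8 was at 5.80, 5.04 and 5.88 CPM on day 0, 63.1, 75.6 and 75.9 on day 1 and 10.1, 9.81 and 20.996 on day 3. NKX1-2, a homeobox gene of the caudal epiblast, was already present on day 0 and passed below that level by day 3, at 41.0, 41.1 and 39.9 CPM on day 0, 140.3, 108 and 138 on day 1 and 5.64, 7.39 and 6.23 on day 3. FOXH1, the DNA-binding partner of SMAD2 in Nodal signalling, went from 29.0 ± 2.67 CPM to 132 ± 29.7 and back to 47.8 ± 14.1. HHEX, a homeobox factor of anterior endoderm and of blood progenitors, went from 0.837 ± 0.177 to 32.3 ± 5.63 and 9.52 ± 4.80 CPM. The remaining 8 factors of the list did not meet the rule. Among them MESP1 was higher on day 3 than on day 1 (day 1 minus day 3, -5.40).

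**Figure D3:**
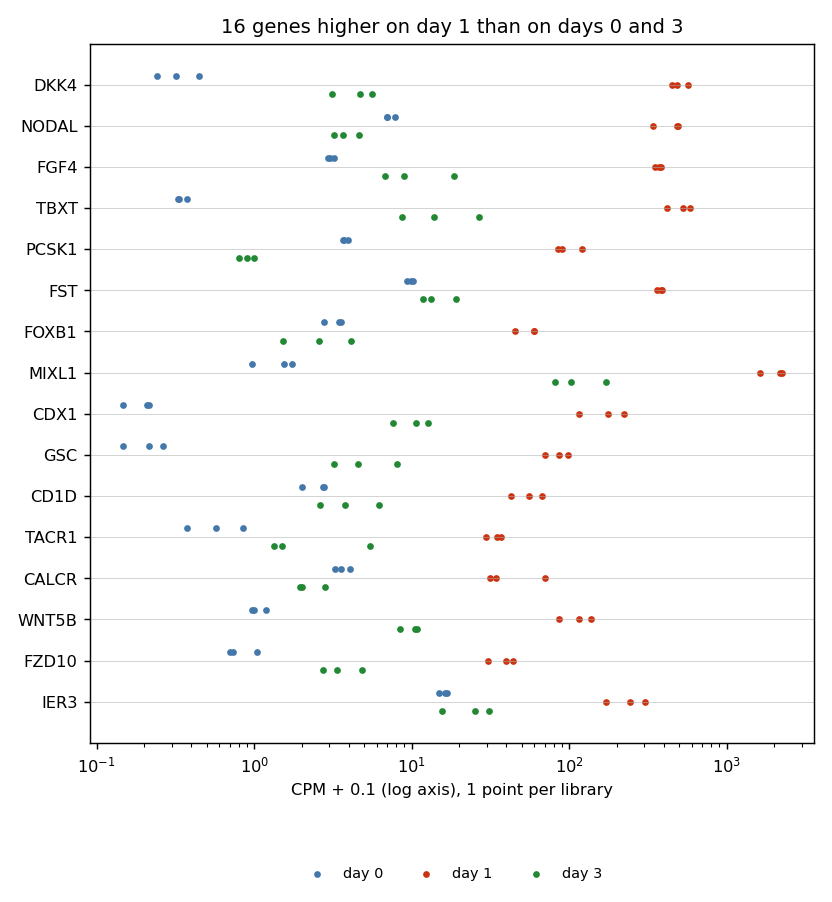
Level in each library (CPM + 0.1, log axis) of the 16 genes with the largest smaller step among those higher on day 1, with 3 points per day and gene. By the rule that named them, every day 1 point lies to the right of all 6 flanking points in its row.

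Wnt signalling genes moved in both directions. Wnt ligands bind Frizzled receptors with LRP5 or LRP6, and the resulting β-catenin signal acts through TCF and LEF factors. Of 27 ligands and receptors tested, 4 were higher than on both days and 6 were lower (median difference -0.95), and of 25 targets and inhibitors 8 were higher and 4 lower (median 0.94). Over all genes tested 6.1% were higher and 5.95% lower. The 2 lists were not tested against each other. The higher ligands were WNT5B, WNT3A and WNT10B, and the higher receptor was FZD10. WNT5B, a ligand known for non-canonical signalling, was at 0.875, 0.895 and 1.10 CPM on day 0, 115, 86.2 and 137 on day 1 and 8.396, 10.3 and 10.7 on day 3. FZD10, a Frizzled receptor, was at 0.602, 0.942 and 0.635 CPM on day 0, 39.5, 30.5 and 43.7 on day 1 and 2.62, 3.27 and 4.72 on day 3. In both genes the 3 days were fully separated, with day 3 above day 0. WNT3A was higher by 4.40 against the flanking mean, but its step from day 3 was uneven, with day 3 at 2.58, 7.24 and 15.3 CPM: the largest of its adjusted p-values was 0.0122, and it became 0.0714 without day 1 replicate 3, 0.0823 without day 3 replicate 1 and 0.0557 without day 3 replicate 2. WNT3, the ligand that starts the streak in mice, was no member, since its day 3 level (70.0, 74.4 and 78.7 CPM) overlapped that of day 1 (97.4, 73.1 and 104; difference 0.30, adjusted p = 0.268).

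The targets included secreted and intracellular inhibitors of Wnt signalling. DKK4 and DKK1 are Dickkopf proteins, which block the LRP coreceptors. DKK4 was measured at 0.219, 0.141 and 0.346 CPM on day 0, 572, 483 and 449.5 on day 1 and 3.02, 5.53 and 4.62 on day 3, a difference of 8.94 from the flanking mean (SE 0.45, adjusted p = 1.43e-13), the largest smaller step of all genes that the naming rule admits. DKK1 was at 0.820, 0.424 and 0.231 CPM on day 0, 770.0, 882 and 752 on day 1 and 180.2, 201 and 297 on day 3, so it kept more of its day 1 level by day 3. AXIN2, a scaffold of the β-catenin destruction complex and a common readout of Wnt activity, was at 23.3, 21.1 and 20.997 CPM on day 0, 186, 147 and 179 on day 1 and 63.5, 68.1 and 74.8 on day 3. APCDD1, a membrane-bound Wnt inhibitor, went from 3.20 ± 0.0453 CPM to 98.6 ± 14.7 and 24.7 ± 3.70, and SP5 from 0.400 ± 0.184 to 586 ± 142 and 173 ± 58.2. CCND1, the cyclin of the early G1 phase, was 103 ± 6.86, 273 ± 21.8 and 88.2 ± 7.53 CPM on the 3 days. RNF43, which removes Frizzled from the membrane, lost its call in 8 alternative fits, more than any other of the 8: its largest adjusted p was 0.0207, and 0.116 without day 1 replicate 1, 0.104 without day 1 replicate 3 and 0.165 without day 3 replicate 3.

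The TCF and LEF factors themselves did not move together. TCF7 was higher on day 1 (9.57, 8.06 and 9.06 CPM on day 0, 55.5, 46.2 and 61.7 on day 1 and 25.2, 33.2 and 33.6 on day 3). TCF7L2 was lower, at 31.8, 33.0 and 34.8 CPM on day 0, 8.58, 8.69 and 8.56 on day 1 and 31.5, 30.9 and 30.4 on day 3, with a difference of -1.90 (SE 0.20, adjusted p = 6.49e-08). The day 3 levels of TCF7L2 lay at or just below those of day 0 (-0.10, adjusted p = 0.729). TCF7L1 was also lower (-1.37), but its day 1 and day 3 libraries overlapped and its step from day 3 (-0.78, adjusted p = 0.0348) reached 0.0526 without day 1 replicate 2, 0.0709 without day 1 replicate 3, 0.0721 without day 3 replicate 2 and 0.0802 without day 3 replicate 3. LEF1 was no member because it went on rising, from 1.01 ± 0.442 CPM on day 0 to 59.5 ± 3.91 on day 1 and 169 ± 42.8 on day 3.

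Among the other lower Wnt genes, SFRP1, a secreted antagonist that binds Wnt ligands, was at 938, 888 and 924 CPM on day 0, 104, 88.1 and 86.2 on day 1 and 375, 265 and 585 on day 3 (-2.72, SE 0.36, adjusted p = 2.74e-06). LGR4, a receptor for R-spondins, which strengthen Wnt signals, was at 117, 139.7 and 125 CPM on day 0, 23.3, 47.8 and 24.2 on day 1 and 257, 146 and 113 on day 3. LRP6, the coreceptor, was at 169.7, 201 and 161 CPM on day 0, 45.7, 78.3 and 43.6 on day 1 and 184, 107 and 91.9 on day 3. ROR1, a receptor for non-canonical Wnt ligands, averaged 145 ± 16.9, 26.7 ± 10.0 and 65.8 ± 16.1 CPM, and FZD8 averaged 10.3 ± 1.17, 4.93 ± 0.739 and 15.9 ± 6.50. These 5 kept their call in all 21 alternative fits, while WNT2B, FZD4, TCF7L1 and DKK3, the other lower members besides TCF7L2, did not. DKK3, of the Dickkopf family, lost its call with GC content and length trends removed (largest adjusted p 0.0739). WNT2B and FZD4 lost theirs without day 0 replicate 2 (0.130 and 0.0524), day 1 replicate 1 (0.0871 and 0.0641) or day 1 replicate 3 (0.127 and 0.0952), and WNT2B also without day 3 replicate 1 (0.302). In LGR4, LRP6 and ROR1 day 1 replicate 2 was the highest of the day 1 libraries, as it was for many low-GC genes, and with GC content and length trends removed the differences of these genes from the flanking mean were -1.87, -0.74 and -1.66, against -2.21, -1.43 and -1.87 without that step.

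The stretch before the start site of 3 signalling genes is shown because TCF and LEF factors bind a short core, CTTTGA (on the other strand it reads TCAAAG), in many Wnt targets. Sequences are the 250 bases before the RefSeq start site (GRCh38.p14), 5′ to 3′ on the gene's strand, with matches in capitals, which for SP5 also mark a CCAAT box read on the other strand. SP5 (chr2:170715087-170715336, plus strand) and DKK1 (chr10:52314031-52314280, plus strand) were chosen after their matches were seen, and NODAL (chr10:70441682-70441931, minus strand) by the rule for named genes.
SP5: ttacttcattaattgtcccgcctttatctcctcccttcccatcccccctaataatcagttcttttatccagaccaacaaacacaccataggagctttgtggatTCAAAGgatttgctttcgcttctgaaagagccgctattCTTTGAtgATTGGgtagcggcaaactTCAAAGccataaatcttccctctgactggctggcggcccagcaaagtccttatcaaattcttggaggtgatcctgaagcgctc
DKK1: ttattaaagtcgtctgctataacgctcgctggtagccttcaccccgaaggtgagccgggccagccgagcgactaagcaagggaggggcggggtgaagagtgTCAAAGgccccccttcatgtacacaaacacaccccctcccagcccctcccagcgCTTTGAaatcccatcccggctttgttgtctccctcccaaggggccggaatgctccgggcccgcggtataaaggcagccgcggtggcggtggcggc
NODAL: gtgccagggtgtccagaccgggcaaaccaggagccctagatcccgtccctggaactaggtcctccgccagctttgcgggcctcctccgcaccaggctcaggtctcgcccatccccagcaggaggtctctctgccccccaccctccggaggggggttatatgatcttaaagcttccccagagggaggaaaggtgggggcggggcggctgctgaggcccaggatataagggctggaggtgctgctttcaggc
The core lies in SP5 with its first base 147, 109 and 83 bases before the start and in DKK1 149 and 95 bases before it, and it does not occur in this window of NODAL. The rule also chose FST and WNT5B, whose stretches are not printed and hold no core either. Every core shown is thus in a gene chosen for its matches. Over all genes it was no more common in the higher set: 83 of 998 higher genes with a promoter in the table held it (8.32%), 80 of 990 lower genes (8.08%) and 8.31% of the 13973 genes tested that have one. Of the 12 higher streak factors with a promoter in the table, 6 held it, and of the 12 higher Wnt and Nodal genes 3 did, with SP5 in both groups. A match is a description of these letters only.

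Nodal is a TGF-β ligand that acts through activin receptors, the coreceptor TDGF1 (CRIPTO) and the factors SMAD2, SMAD3 and FOXH1. Of 18 genes of this pathway tested, 7 were higher on day 1 than on both days and 3 were lower, where 6.1% and 5.95% of all genes tested were (median difference 0.48). NODAL (ENSG00000156574, chromosome 10, 70431936 to 70447951, minus strand) was at 6.84, 6.83 and 7.73 CPM on day 0, 487, 339 and 494 on day 1 and 3.55, 4.51 and 3.11 on day 3. Its day 1 level stood 5.95 above day 0 and 6.88 above day 3 on the log2 scale, and day 3 was itself below day 0 (-0.93, adjusted p = 0.00480). FST (follistatin), which binds and neutralises activin, was at 9.19, 10.1 and 9.86 CPM on day 0, 384, 360.4 and 387 on day 1 and 11.8, 13.2 and 19.0 on day 3. In FST the day 1 libraries differed little among themselves, and day 3 did not differ from day 0 beyond the spread (0.58, adjusted p = 0.138). CER1, a secreted inhibitor of Nodal, BMP and Wnt ligands, was at 0.985, 1.13 and 0.923 CPM on day 0, 83.9, 116 and 59.9 on day 1 and 11.5, 16.9 and 24.8 on day 3. PMEPA1, a SMAD inhibitor induced by TGF-β signals, was at 28.5, 25.2 and 25.2 CPM on day 0, 97.1, 74.9 and 103 on day 1 and 6.31, 7.47 and 9.54 on day 3, so that it ended below its day 0 level.

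The Nodal inhibitors LEFTY1 and LEFTY2 were no members. LEFTY1 was at 10.8, 10.6 and 10.5 CPM on day 0 and 14.9, 8.59 and 13.5 on day 1, so that these days overlapped, and LEFTY2 was lower on day 1 than on day 3 but did not pass against day 0 (-0.83, adjusted p = 0.0920). TDGF1 declined across the days, from 601 ± 20.7 to 363 ± 28.8 and 107 ± 60.8 CPM, with the step to day 1 not passing (-0.73, adjusted p = 0.164). INHBA, which forms activin A, was lower on day 1: it had 3 counts over the day 1 libraries and averaged 0.831 ± 0.137 CPM on day 0 and 12.2 ± 8.02 on day 3. GDF3, a Nodal-related ligand, was called higher, but its step from day 0 was small (1.07, adjusted p = 0.0165) and the largest adjusted p lay between 0.0516 and 0.0553 without day 0 replicate 1 or 2 or day 1 replicate 1 or 3. SMAD2 was called lower (-1.01), and with GC content and length trends removed its difference was 0.00746. Leaving out a library other than day 1 replicate 2, day 3 replicate 2 or day 3 replicate 3 also ended its call, with a largest adjusted p between 0.0506 and 0.124. The number of lower Nodal genes was 1 without day 1 replicate 1 or 3 and 5 without day 1 replicate 2.

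The ligands FGF4, FGF8, FGF17, FGF18 and FGF19 were higher on day 1 than on both flanking days, and the receptors FGFR2 and FGFR3 were lower. FGFs signal through receptor tyrosine kinases to ERK, which induces immediate early factors and inhibitors of the DUSP and SPRY families. Of 27 genes tested, 9 were higher than on both days and 3 were lower, where 6.1% and 5.95% of all genes tested were. Their median difference was 0.31, or 0.06 with GC content and length trends removed. FGF4 (ENSG00000075388, chromosome 11, 69771022 to 69775341, minus strand), an early streak ligand, was at 3.12, 2.83 and 2.94 CPM on day 0, 385, 373 and 351 on day 1 and 6.71, 8.87 and 18.4 on day 3. That is 6.96 above day 0 (SE 0.48, adjusted p = 5.13e-11) and 5.04 above day 3 (SE 0.43, adjusted p = 1.61e-09). FGF8, which moves cells out of the streak, was at 1.20, 0.754 and 1.44 CPM on day 0, 40.0, 28.6 and 45.6 on day 1 and 4.71, 6.77 and 6.73 on day 3. FGF17, of the same subfamily, was at 0.109, 0.236 and 0.0577 CPM on day 0, 95.2, 71.1 and 118 on day 1 and 5.82, 15.9 and 46.4 on day 3, with day 3 replicate 3 the highest of its day. FGF19, which like FGF4 was already present on day 0, was at 24.4, 21.5 and 23.1 CPM on day 0, 100.5, 72.2 and 106 on day 1 and 2.44, 4.98 and 4.72 on day 3 and ended below day 0. FGF18 was low, with 1.05 ± 0.128, 2.99 ± 0.421 and 0.460 ± 0.0618 CPM.

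Of the ERK targets, FOSL1, an AP-1 factor, averaged 2.49 ± 0.469, 33.5 ± 6.71 and 3.94 ± 0.837 CPM. EGR1 was called, but its step from day 3 was 0.83 (adjusted p = 0.0424) and 17 of 21 alternative fits did not call it, among them those without any one library other than day 0 replicate 1 or day 1 replicate 2 (largest adjusted p 0.0712 to 0.249). The feedback genes DUSP4 and IL17RD were called higher and SPRED1 lower. DUSP4 lost its call without day 1 replicate 1 or 3 or day 3 replicate 1 or 2 (largest adjusted p 0.0542 to 0.154). IL17RD lost it only without the 3 libraries together (0.0705). SPRED1 lost it with GC content and length trends removed (0.621) and without the 3 libraries together (0.0655). SPRED1 was also not called without day 0 replicate 2, day 1 replicate 1 or 3, or day 3 replicate 1 (0.0627 to 0.138). DUSP6 and SPRY4, both inhibitors that ERK induces, were not members: DUSP6 averaged 291 ± 8.27 CPM on day 0, 131 ± 6.86 on day 1 and 101 ± 12.9 on day 3. FGFR2 (ENSG00000066468) was at 119, 119 and 108 CPM on day 0, 22.104, 17.7 and 17.02 on day 1 and 151, 127 and 145 on day 3 (-2.75, SE 0.22, adjusted p = 7.62e-10). All 3 day 3 libraries lay above the day 0 libraries, a difference that did not pass (0.29, adjusted p = 0.318). FGFR3 went from 9.55 ± 0.955 to 3.25 ± 0.997 and then to 121 ± 19.0 CPM, so that day 3 was far above day 0 (3.67, adjusted p = 1.55e-08). Without day 0 replicate 2, day 1 replicate 2 and day 3 replicate 1, the FGF list had 6 higher and 2 lower genes.

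The remaining genes with the largest smaller steps belong to no signalling list. PCSK1, a convertase that cuts prohormones, was at 3.61, 3.82 and 3.58 CPM on day 0, 89.7, 121 and 85.4 on day 1 and 0.800, 0.700 and 0.904 on day 3, 5.84 above the flanking mean (SE 0.24, adjusted p = 3.57e-15). FOXB1, a forkhead factor, was at 3.45, 2.69 and 3.35 CPM on day 0, 60.1, 45.3 and 60.1 on day 1 and 1.42, 2.49 and 4.02 on day 3. CD1D, which presents lipid antigens, went from 2.42 ± 0.436 CPM to 55.3 ± 12.2 and 4.11 ± 1.84. The receptors TACR1 (for substance P) and CALCR (for calcitonin) were at 33.7 ± 3.56 and 45.3 ± 21.6 CPM on day 1, against 0.498 ± 0.239 and 3.53 ± 0.412 on day 0 and 2.66 ± 2.31 and 2.16 ± 0.476 on day 3. For CALCR the day 1 libraries were uneven, at 31.5, 70.1 and 34.3. IER3, an immediate early gene linked to survival, was at 16.3, 16.7 and 14.9 CPM on day 0, 245, 170.3 and 304 on day 1 and 15.4, 25.2 and 30.7 on day 3. Each of the 16 genes in the plot of higher genes by library, PCSK1 to IER3 included, kept its call in all 21 alternative fits.

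Stress and metabolic genes had smaller differences and less stable calls. In the integrated stress response ATF4 raises amino acid synthesis and transport. Of 20 genes of this response, 6 were higher than on both days and none was lower (median 1.09), where 6.1% and 5.95% of all genes tested were. Of the 6, 4 held in all alternative fits. ASNS (asparagine synthetase) was at 160.1, 179 and 168 CPM on day 0, 388, 358 and 348 on day 1 and 31.9, 32.4 and 31.7 on day 3. SLC3A2, a subunit of amino acid transporters, averaged 335 ± 8.76, 832 ± 188 and 136 ± 27.3 CPM, SHMT2, a mitochondrial serine enzyme, 205 ± 3.46, 513 ± 101 and 162 ± 53.2, and the factor ATF3 11.9 ± 0.935, 25.9 ± 4.64 and 7.15 ± 1.97. Of 23 p53 targets, 6 were higher, among them BAX, FDXR and SESN2, and none was lower, against the same 6.1% and 5.95% of all genes tested. Only SESN2, a stress-induced inhibitor of mTORC1, held in all alternative fits (26.4, 24.4 and 28.4 CPM on day 0, 60.7, 47.5 and 69.6 on day 1 and 17.6, 32.5 and 30.5 on day 3). The count of higher targets was 1 with library totals alone or without day 1 replicate 3, 2 without day 1 replicate 1 or day 3 replicate 1, and 3 without day 0 replicate 2, day 0 replicate 3 or day 3 replicate 3. CDKN1A, the best-known p53 target, was above day 0 but its step from day 3 did not pass (0.55, adjusted p = 0.177).

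Among 23 genes of fatty acid oxidation, 5 were higher and 1 lower, where 6.1% and 5.95% of all genes tested were. CPT1A, which passes long-chain fatty acids to the mitochondria, stood out at 9.96, 10.6 and 12.6 CPM on day 0, 119.7, 86.8 and 119 on day 1 and 5.69, 9.18 and 5.42 on day 3, 3.64 above the flanking mean (SE 0.20, adjusted p = 5.85e-13), while the other 4 higher genes lost their call in at least 3 alternative fits each. The count of higher genes in this list was 2 without day 1 replicate 1 or 3 and 3 without day 3 replicate 1 or any one day 0 library, and DECR1, the lower gene, lost its call without day 0 replicate 2 or 3, day 1 replicate 1 or 3, or day 3 replicate 1 (largest adjusted p 0.0631 to 0.135). Of 72 nuclear genes of oxidative phosphorylation, 20 were higher (6.1% of all genes tested were) and none lower (5.95%), with a median of 0.64. That count of higher genes was 4 without day 1 replicate 3, 6 without day 1 replicate 1, 10 without day 0 replicate 2 or with library totals alone, 12 without day 0 replicate 1 and 36 without day 1 replicate 2. ATP5PD, a subunit of ATP synthase (104, 89.1 and 90.3 CPM on day 0, 258, 208 and 198 on day 1 and 57.7, 55.6 and 60.4 on day 3), was the only one of the 20 that held in all alternative fits. None of the 13 mitochondrially encoded messenger RNAs met the rule, although they took 1.66% to 1.80% of counts on day 1, against 1.19% to 1.26% on day 0 and 1.36% to 1.95% on day 3. In glycolysis 2 of 22 genes were higher (PGAM1 and GPI), close to the 6.1% of all genes tested. Their number was 0 without day 0 replicate 1 or 2 or day 1 replicate 1 or 3, and 5 without day 1 replicate 2 or day 3 replicate 3. Of 50 cytosolic ribosomal protein genes none was higher and RPL7 alone was lower, where 6.1% and 5.95% of all genes tested were. RPL7 lost its call without day 0 replicate 2 or 3, day 1 replicate 1 or 3, or day 3 replicate 1 (largest adjusted p 0.0620 to 0.161).

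Most replication-dependent histones were above the flanking mean on day 1. These intronless genes are transcribed in S phase and many of their messages lack a poly(A) tail, so that depletion of ribosomal RNA, used here, retains them better than selection of poly(A) RNA. Of 45 tested, 42 were higher than the flanking mean (18.5% of all genes tested were), 17 were higher than on both days (6.1%) and none was lower (median 1.01, or 0.72 with GC content and length trends removed). The group took 2.98%, 2.54% and 3.20% of counts in the day 1 libraries, 1.36%, 1.26% and 1.33% on day 0, and 1.46%, 2.43% and 2.24% on day 3. The day 1 libraries lay above all others, and day 3 replicate 1 lay apart from the other day 3 libraries, near day 0. The count of 17 fell to 7 without day 3 replicate 1, to 10 without day 1 replicate 3, to 11 without day 1 replicate 1 and to 8 without the 3 libraries that stood apart, and was 29 when only the 9 libraries were fitted, 24 with the replicate number as a block and 22 with no filter beyond 1 count. H3C6 was at 364, 334 and 355 CPM on day 0, 928, 737 and 1024 on day 1 and 289, 485 and 402 on day 3, and H2AC16 at 141, 134 and 143 CPM on day 0, 363, 275 and 436 on day 1 and 74.9, 149 and 137 on day 3. H2AC16, H2BC7, H2BC14, H3C1, H3C6 and H4C1 held in all alternative fits that included histones. Many of these genes are near-identical copies, among which the authors' counting could split reads, so single histone levels are uncertain.

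Histone promoters are known for CCAAT boxes, bound by NF-Y, and the 250 bases before the RefSeq start of 2 of the 3 histone genes with the largest smaller steps, those with a promoter in the table, are shown for that reason (GRCh38.p14, capitals mark CCAAT and its reverse complement, ATTGG).
H2AC16 (chr6:27865067-27865316, plus strand): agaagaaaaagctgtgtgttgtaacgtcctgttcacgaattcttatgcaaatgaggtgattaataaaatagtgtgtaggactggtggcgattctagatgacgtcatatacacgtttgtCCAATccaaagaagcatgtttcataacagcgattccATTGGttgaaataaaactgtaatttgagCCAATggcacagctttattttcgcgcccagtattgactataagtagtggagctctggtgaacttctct
H3C6 (chr6:26223928-26224177, plus strand): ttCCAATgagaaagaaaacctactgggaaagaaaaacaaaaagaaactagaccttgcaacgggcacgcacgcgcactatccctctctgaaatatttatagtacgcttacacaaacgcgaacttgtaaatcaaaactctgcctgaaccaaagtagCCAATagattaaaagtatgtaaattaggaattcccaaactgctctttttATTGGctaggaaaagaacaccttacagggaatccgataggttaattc
Each holds 3 matches. Of the 40 tested histone genes with a promoter in the table, 34 held at least 1 (85.0%), as did 13 of the 15 that were higher on day 1 (86.7%), against 34.4% of all genes tested and 35.6% of all higher genes.

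Genes of cell division were read as DNA replication genes and as mitotic genes. Of 28 DNA replication genes 1, CDC45, was higher than on both days and none lower. Over all genes tested 6.1% were higher and 5.95% lower, so the count of higher genes is near that share. CDC45 lost its call without any one day 0 library and without day 1 replicate 1 or 3 (largest adjusted p 0.0634 to 0.132). Of 32 mitotic spindle and kinetochore genes none was higher and 5 were lower (TOP2A, MKI67, ASPM, ANLN and CDK1), where 6.1% and 5.95% of all genes tested were. The median of the list was -0.41, or -0.23 with GC content and length trends removed. TOP2A, the topoisomerase that untangles chromosomes, was at 621, 712 and 601 CPM on day 0, 104, 157 and 104 on day 1 and 644, 314 and 251 on day 3. Every day 1 library lay below every flanking one, but day 3 replicate 1 was far above the others of its day, and without it the largest adjusted p of TOP2A was 0.0550 and that of CDK1 0.0535. The count of lower genes was 1 without that library and 3 without day 0 replicate 2, day 1 replicate 1 or day 1 replicate 3, and it was 12 when only the 9 libraries were fitted (with 1 gene higher) and 9 with no filter beyond 1 count. Without day 0 replicate 2, day 1 replicate 2 and day 3 replicate 1 only 1 gene of the list was lower. This list has a median GC content of 42.2%, below the 47.8% of all genes tested.

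Among the lower genes, the 12 with the largest smaller steps, FGFR2 included, kept their call in all 21 alternative fits. CGNL1 (paracingulin), a protein of epithelial junctions, was at 139.8, 143 and 146 CPM on day 0, 16.6, 16.01 and 10.1 on day 1 and 627, 335 and 394 on day 3, -4.15 against the flanking mean (SE 0.33, adjusted p = 5.09e-10). PLEKHA6, another junction-associated protein, was at 21.6, 22.2 and 23.2 CPM on day 0, 3.32, 2.88 and 5.18 on day 1 and 108, 124 and 79.8 on day 3. Both genes passed above their day 0 level by day 3 (1.66 and 2.22, adjusted p = 0.000108 and 4.35e-07). ABCA1, which exports cholesterol to lipoproteins, was at 33.6, 39.4 and 32.2 CPM on day 0, 3.17, 3.47 and 2.59 on day 1 and 38.03, 17.6 and 18.4 on day 3 and did not differ between days 0 and 3 beyond the spread (-0.50, adjusted p = 0.219). MYCN, a MYC family factor of stem and progenitor cells, was at 109.7, 99.9 and 97.7 CPM on day 0, 13.9, 11.9 and 17.02 on day 1 and 63.4, 91.4 and 104 on day 3. CDK6, a partner of D-type cyclins, went the other way from CCND1: it was at 23.1, 29.4 and 22.8 CPM on day 0, 4.41, 6.10 and 4.67 on day 1 and 205, 109 and 43.6 on day 3, with wide spread on day 3. PLPP3, a lipid phosphatase, averaged 52.997 ± 2.85, 9.84 ± 0.966 and 75.5 ± 17.96 CPM, and PKDCC, a secreted kinase, 58.2 ± 4.98, 12.04 ± 4.81 and 84.5 ± 38.2. ANKRD33B averaged 48.1 ± 1.57, 7.42 ± 0.818 and 58.2 ± 3.59 CPM, KIZ, a centrosomal protein, 42.2 ± 1.63, 7.32 ± 2.29 and 32.8 ± 10.2, ARHGAP42 47.1 ± 4.80, 10.5 ± 2.48 and 52.2 ± 17.6, and CCDC141 27.9 ± 3.57, 5.80 ± 1.92 and 31.4 ± 8.61. That no day 1 library overlapped a flanking one in these 12 genes, as in the 16 higher ones, was part of the rule that named them.

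**Figure D4:**
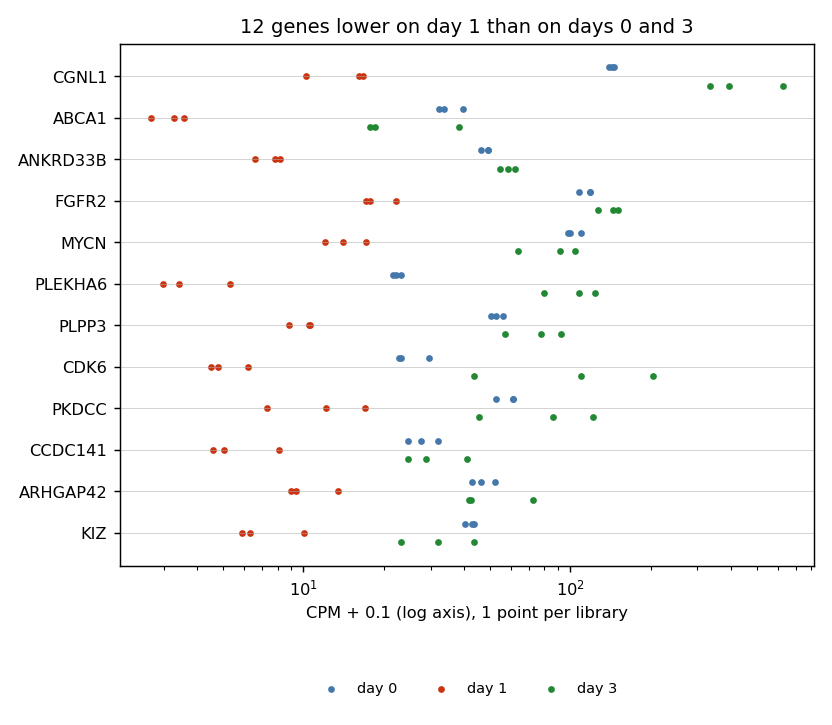
Level in each library (CPM + 0.1, log axis) of the 12 genes with the largest smaller step among those lower on day 1, with 3 points per day and gene. By the rule that named them, every day 1 point lies to the left of all 6 flanking points in its row, and CDK6 has the widest spread on day 3.

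The lower set held longer, AT-richer genes. Its median transcript length was 5754 bases and its median GC content 40.2%, against 2901 bases and 52.5% in the higher set and 3044 bases and 47.8% over all genes tested. In the 20% of genes with the lowest GC content 711 genes were lower and 49 higher, and in the 20% with the highest 78 were lower and 368 higher. With the trends of GC content and length removed, each of the 12 genes above was still called, with differences from -4.22 (CGNL1) to -1.52 (ARHGAP42).

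Few genes of the BMP and Notch lists were members, and none of these was higher. Of 22 BMP ligands, modulators and targets none was higher and 3 were lower (GREM1, ID1 and BMP6), where 5.95% of all genes tested were, while 18 were lower on day 1 than on day 3, as 4049 of all genes tested were (18.2%). GREM1 and BMP6 lost their call without day 1 replicate 1 (largest adjusted p 0.0841 and 0.0543), and GREM1 also without day 0 replicate 2 (0.0828) or day 1 replicate 3 (0.0766). ID1, a direct BMP target that restrains bHLH factors, was at 75.9, 70.2 and 76.3 CPM on day 0, 24.6, 17.7 and 31.8 on day 1 and 139, 189.6 and 209 on day 3. Of 16 Notch genes none was higher and 1 was lower, where 6.1% and 5.95% of all genes tested were, so this list shows no direction. The lower gene, LFNG, a glycosyltransferase that modifies Notch, averaged 23.1 ± 1.78, 9.17 ± 1.69 and 38.6 ± 20.2 CPM. The median of the Notch list changed sign with the scaling (0.04, or -0.14 with library totals alone, -0.08 with histones left out and -0.24 with GC content and length trends removed). In the list for epithelial to mesenchymal transition and adhesion, 1 of 22 genes was higher (the claudin CLDN7, whose largest adjusted p was 0.0504 without day 1 replicate 3) and none was lower. The count of higher genes there is near the 6.1% of all genes tested, and 5.95% of all were lower.

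Genes of the states on either side were mostly no members, where 6.1% of all genes tested were higher and 5.95% lower than on both days. Of 23 pluripotency genes none was higher and none lower than on both days: 14 were below day 0 on day 1 (16.5% of all genes tested were) and 16 were above day 3 (19%). POU5F1 was at 1547, 1645 and 1735 CPM on day 0, 2050.2, 1358 and 2277 on day 1 and 108, 205 and 269 on day 3, with overlap between days 0 and 1. Of 18 cardiac mesoderm genes none was higher, 1 (MYOCD, largest adjusted p 0.0573 without day 1 replicate 3) was lower, and 17 were below their day 3 level, as 18.2% of all genes tested were (median -2.60). Only 2 of 11 polymerase III and other small RNAs were tested and neither was a member.

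Markers of other cell types that the cultures could hold were read as well. Over all genes tested 6.1% were higher and 5.95% lower than on both days, so 1 member in a list of 10 to 14 is near that share. Of 14 endoderm and liver markers 1, HHEX, was higher, and their summed level was 29.7 to 30.7 CPM on day 0, 113 to 152 on day 1 and 310.1 to 537 on day 3. For 10 neural ectoderm markers 1 (PAX6) was lower, with sums of 415 to 443, 310.3 to 386 and 520.4 to 689 CPM. Of 12 trophoblast and amnion markers 1, TFAP2C, was higher (3.61, 5.14 and 4.38 CPM on day 0, 15.5, 10.9 and 14.6 on day 1 and 2.18, 2.88 and 3.42 on day 3), with sums of 403 to 426, 470.1 to 692 and 661 to 1024 CPM. Endothelial and blood markers were tested for 13 genes, of which TIE1 and LMO2 were higher and CDH5 lower, with sums of 417 to 429, 258 to 465 and 162 to 223 CPM. TIE1 lost its call without day 0 replicate 2 or 3 or day 1 replicate 1 or 3 (largest adjusted p 0.0603 to 0.107). Among single markers, SOX17 and TTR had no count in any day 1 library, and CDH5, the cadherin of endothelial junctions, had 3 counts over the day 1 libraries. Other markers went the other way. Of the 14 endoderm and liver markers 5 were above day 0 on day 1 and 1 below, and of the 13 endothelial and blood markers 4 and 3. Over all genes tested these shares were 15.3% and 16.5%. The neural sum was lower in every day 1 library than in all flanking ones, with NES at 321 ± 9.83, 269 ± 54.2 and 373 ± 52.0 CPM as its largest part, while no other sum was highest or lowest on day 1. The part of these cells in the results was not tested.

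For most members no difference between the flanking days themselves was called. Over all genes, 4257 were higher on day 3 than on day 0 (19.1%) and 3990 lower (17.9%). Of the 1357 higher genes, 138 were above day 0 on day 3, 192 were below it and 1027 did not pass, which does not show a full return. Of the 1323 lower genes, 175 were above day 0, 82 below it and 1066 did not pass. TBXT, MIXL1, EOMES, SP5 and DKK1 were among those still above day 0, and NODAL, PCSK1, FGF19, NKX1-2 and PMEPA1 among those that went below it.

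The later days, which the comparison did not use, were read from mean levels without a test. Days 0 and 3 cannot hold the highest or lowest mean of a member, since the rule sets day 1 apart from them, so the counts only compare day 1 with days 5 to 28. The mean level was highest on day 1 in 1149 of the 1357 higher genes (19.2% of all genes tested, which the rule does not restrict, had their highest mean then). In the other 208 a later day was higher, most often day 28 (78 genes) or day 10 (51). Of the 1323 lower genes, 1139 had their lowest mean on day 1 (20.2% of all genes tested did) and 184 on a later day. Among the streak genes the decline went on: TBXT averaged 1.90 CPM on day 5 and 0.887 on day 7. NODAL was higher on day 5 (17.4 CPM) than on day 3 (3.73), before 4.197 on day 7 and 0.224 on day 28. WNT5B and FST stood higher again, at 62.9 and 32.0 CPM on day 28. CPT1A averaged 36.4 CPM on day 28, below its 108 on day 1. Of the lower genes, CGNL1, CDK6 and LGR4 were highest on day 28, at 636, 384 and 1149 CPM, whereas MYCN and FGFR2 had their highest mean on day 5 and stood at 14.7 and 24.5 CPM by day 28.

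**Figure D5:**
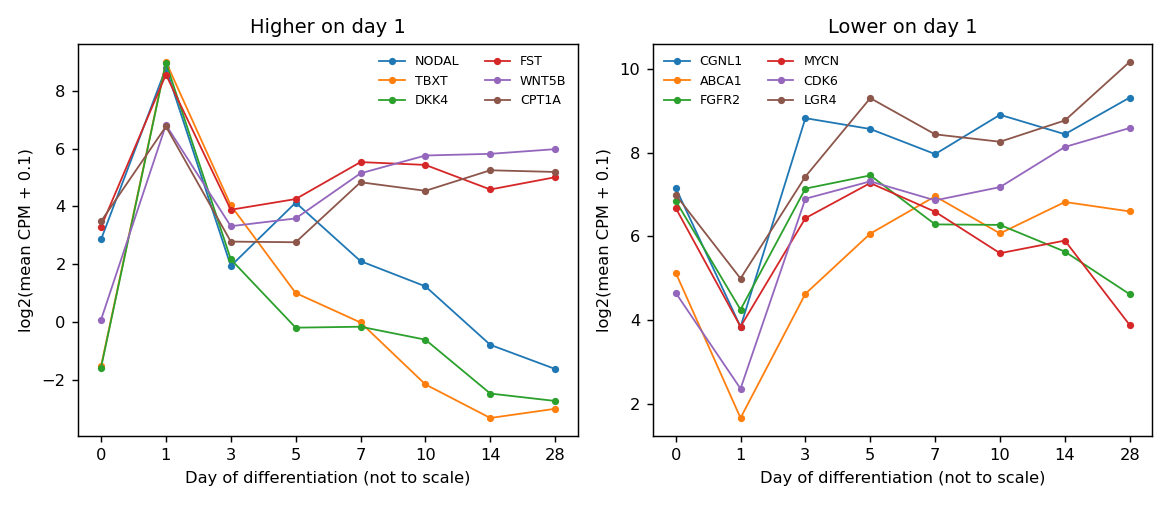
Mean level over all 8 days (log2 of mean CPM + 0.1, days not to scale, no error bars) of 6 genes higher on day 1 (left) and 6 genes lower on day 1 (right). All 6 higher genes have their maximum on day 1, and WNT5B, FST and CPT1A hold a level on later days that TBXT and DKK4 do not, while all 6 lower genes have their minimum there and MYCN is about as low again on day 28.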

How the data were processed

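Values are raw gene counts deposited by the authors for 23 libraries, of which 9 are described and all enter the fit. Per the submitters' processing notes and the series text, paired-end reads from stranded, ribosomal RNA-depleted libraries were trimmed to 50 bases (Trim Galore 0.65), aligned to GRCh38 (STAR 2.7.0) and counted per gene (HTSeq-count, GENCODE 38). All 57477 genes other than 44 pseudoautosomal copies, which held 0 counts, were used, and 22245 passed edgeR's expression filter (minimum count 10). Gene counts were fitted with edgeR 4.0.16 in R 4.3.3 (TMM scaling, robust quasi-likelihood, 1 coefficient per day), with Benjamini-Hochberg adjustment over all genes tested.

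A gene was called when day 1 minus the mean of days 0 and 3, day 1 minus day 0 and day 1 minus day 3 had the same sign and each an adjusted p under 0.05. SE is the size of the log2 difference divided by the square root of F. Gene names, transcript GC content and length came from GENCODE 44, which held 56387 of the identifiers and not 1090. The named genes are the 16 higher and 12 lower genes with the largest smaller step (mean at least 20 CPM, no overlap, characterised symbol), members of the lists, and the genes with the largest ratio of day 1 to the next day. The members, the lists and the rules were chosen with earlier results of these data known. The lists not otherwise named are polymerase III RNAs, sterol and fatty acid synthesis genes and markers of endoderm, neural ectoderm, trophoblast and endothelium. Of 27 sterol and fatty acid synthesis genes tested, 2 were higher and 1 lower than on both days, where 6.1% and 5.95% of all genes tested were. CRIPTO3, H3C2 and H3C3 were not matched by symbol. Tested on simulated counts for this comparison over 16141 genes, the procedure found 12 of 100 genes set 2-fold higher or lower on day 1 and 90 of 100 set 4-fold, and called none of the unchanged genes. The simulated counts held no trend of GC content or length and no deviations shared between libraries. Far fewer genes were changed in them than were called in the data. These figures therefore do not give the share of missed or false calls in the data. The alternatives are other scalings and filters, DESeq2 1.42.0, trends of GC content and length removed with mgcv 1.9.3, a replicate block, only the 9 libraries, each of them left out, and 3 of them left out together. Results for a few list members are not reported here.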

Additional observations from a re-analysis of the deposited data

How the results depend on the processing

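The 16 higher and 12 lower genes with the largest steps kept their call in all 21 alternative fits. Of the list members, 50 of 103 higher and 12 of 31 lower genes kept it in every fit that tested them. The fit without histones did not test the histones, and the filter with a minimum of 50 counts left out a few members, a streak factor among them. DESeq2 called 1495 genes higher and 1512 lower than on both days. With library totals alone, 2693 genes were higher than the flanking mean and 4232 lower, and 829 were higher than on both days. A threshold of 2-fold against each day left 590 higher genes, and leaving out day 0 replicate 2, day 1 replicate 2 and day 3 replicate 1 together, an alternative chosen after seeing the data as were the counts per list under each alternative, left 842 lower genes. Leaving out single libraries gave 2125 to 4358 genes higher and 1854 to 4000 lower than the flanking mean, and 617 to 1870 higher and 586 to 1953 lower than on both days, with the extremes among the 3 day 1 libraries: the count of genes higher than the flanking mean was 2354 without day 1 replicate 1 and 2125 without replicate 3, and that of lower genes 1854 and 1966. The cause was not tested.

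Among the called genes, 313 were higher on day 3 than on day 0 and 274 lower. These counts were 521 and 649 with GC content and length trends removed, 490 and 435 with the 9 libraries alone, 208 and 127 without the 3 libraries, and 207 to 383 and 134 to 373 without single libraries. SMAD2 changed sign with GC content and length trends removed (0.00746). Libraries that share a replicate number did not deviate together throughout (r from -0.419 to 0.229). This cannot settle whether the numbers pair libraries. The deviations shared by day 0 replicate 2, day 1 replicate 2 and day 3 replicate 1 enter the same values, and the labels do not say. With the replicate number as a block, 4019 genes were higher and 3478 lower than the flanking mean, and 1315 and 1381 than on both days. Of 100 simulated 2-fold changes 12 were found, so genes with small steps can be missed, though the share missed in the data may differ. The part of depth in this was not tested.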
